A study of Mus musculus with 12 samples.

Results

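The nuclei described here are adipocyte nuclei of lPRAT, a mouse fat depot, in a pair of libraries that differ in the age of the mice. The abbreviation is usually read as lateral perirenal adipose tissue, the fat around the kidney, although the labels do not spell it out. A nucleus was counted as an adipocyte nucleus when the UMIs (unique molecular identifiers, 1 per captured RNA molecule) of Adipoq, Plin1, Plin4, Lipe, Cidec and Acsl1 summed to at least 3. That sum also had to exceed the summed UMIs of Flt1, Ptprb, Lama2, Dcn, Mrc1 and Ptprc, genes of vessel, stromal and immune cells. Nuclei entered only if 300 genes or more were detected and mitochondrial UMIs made up no more than 10%. The rule gave 2063 nuclei at 2 months and 2316 at 6 months, 4379 of the 9245 lPRAT nuclei kept. The same rule gave 74816 adipocyte nuclei among 106898 kept nuclei of all 12 libraries.

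Single-nucleus RNA sequencing was used, in which nuclei are stained with 7-AAD, sorted and captured in droplets with a 3′ kit. All mice were male C57BL/6J animals on normal chow, and both lPRAT libraries came from mice kept at 22 °C. Titles give the ages as 2 and 6 months, while another label field gives 8 and 16 weeks, and the title ages are used below. Other libraries serve only for comparison: mPRAT and iBAT at room temperature from mice of 1, 2 and 6 months by title, iWAT from 6-month mice, and 6-month mPRAT, iBAT and iWAT after 3 days at 4 °C. Every group is 1 library, and how many animals were pooled in it is not given in the sources used here. There is therefore no replicate error, and age, animal, dissection and library preparation cannot be told apart in any difference below. Intervals in the text are 95% intervals that cover counting error only. The nuclei were chosen by their UMIs of the 12 rule genes, and the pair of libraries was chosen by the difference between them. Every gene of this contrast counts as used by that choice, so its differences are given as a description, with no test.

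White adipocytes keep triglyceride in 1 large lipid droplet. They take up fatty acids that lipoprotein lipase frees from blood lipoproteins, or make them from glucose through the enzymes ATP citrate lyase and fatty acid synthase. Fat is released by lipolysis, in which adipose triglyceride lipase and then hormone-sensitive lipase cut fatty acids from the stored triglyceride. The cells also secrete hormones such as leptin and adiponectin, and perirenal fat can hold brown as well as white adipocytes.

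The 2-month library stood apart from the others in depth and RNA content. It held 5461133 UMIs against 26529576 at 6 months and 11565118 to 87035783 in the other 10 libraries. A 2-month adipocyte nucleus had a median of 955 UMIs and 629 genes, against 6094 UMIs and 2610.5 genes at 6 months. In the other 10 libraries the median was between 1342 and 6745 UMIs. Mitochondrial UMIs made up 2.06% of the adipocyte sum at 2 months, 0.261% at 6 months and 0.137% to 1.78% elsewhere. Before the limit on them was applied, 21.4% of barcodes with enough genes exceeded it at 2 months and 5.29% at 6 months, both within the 0.0877% to 66.0% of the other 10 libraries. The noncoding transcript Gm42418, which overlaps ribosomal RNA sequence, took 7.95% of adipocyte UMIs at 2 months, 0.469% at 6 months and 0.305% to 3.77% elsewhere. The part of depth and of these transcripts in the differences below was not tested, apart from the alternatives named beside them. The 2 libraries shared 10 cell barcodes.

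Adipocyte nuclei were 62.9% (61.2% to 64.6%, exact Clopper-Pearson interval) of the kept nuclei at 2 months and 38.8% (37.6% to 40.1%) at 6 months. The share depends on the rule and on depth: the median sum of the 6 marker genes was 7 UMIs per adipocyte nucleus at 2 months and 56 at 6 months. Just outside the limit, 181 nuclei at 2 months and 246 at 6 months had a sum of 2, and just inside it 201 and 110 had a sum of 3. A further 28 and 297 nuclei reached the sum but did not exceed the other 6 genes. The remaining 1216 and 3650 nuclei held mesothelial, stromal, endothelial and macrophage nuclei by their markers, and they are the background for the levels below. At 2 months 191 were classed as mesothelial, 367 as stromal progenitor, 22 as endothelial and 218 as macrophage nuclei. At 6 months the numbers were 764, 928, 288 and 1259, and in both libraries the others had no class. The make-up of this background thus differed between the libraries.

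Levels are given in CPM, the UMIs of a gene per 1000000 UMIs of all adipocyte nuclei of that library. Together the 6 marker genes reached 6918 CPM (2 months) and 8809 CPM (6 months) in adipocyte nuclei, against 594 and 458 CPM in the rest. Adipoq, which encodes adiponectin, had 199 CPM at 2 months and 274 CPM at 6 months. Plin1, the droplet-coating perilipin 1, had 876 and 1187 CPM. Lipe, which encodes hormone-sensitive lipase, had 1784 and 1414 CPM, and the droplet fusion factor Cidec 2135 and 1734 CPM. Acsl1, which activates fatty acids with coenzyme A, had 1424 and 1905 CPM. Of the 6 genes only Plin4, which encodes perilipin 4, lay past the fold used for calls below, with 500.1 CPM at 2 months and 2295 CPM at 6 months. Since these genes chose the nuclei, their levels are no finding and do not check the label. Of genes the rule did not use, Pparg, the master regulator of fat cell differentiation, had 3136 and 2472 CPM in adipocyte nuclei against 464 and 367 CPM in the remaining nuclei. Lpl, which encodes lipoprotein lipase, had 1777 and 872 CPM against 409 and 659 CPM, so its levels lay closer together at 6 months. Both genes were picked for this check after their values were seen.

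Across all genes, 368 were higher and 315 lower at 6 months. A gene was called when the log2 ratio of its CPM, with 10 CPM added to both libraries, was at least 1 or at most -1. Only the 8666 genes with a mean of at least 10 CPM were considered, so 4.25% were called higher and 3.63% lower. The median log2 ratio over all of them was 0.12. Protein-coding genes made up 330 of the higher and 290 of the lower genes. For all 683 called genes the counting interval of the plain ratio of CPM excluded 1. The same counts made the calls, so this adds no support to them. The balance depended on the scaling: higher genes were 53.9% of the calls as counted, and 65.4% with TMM scaling (edgeR's trimmed mean of M-values). They were 38.9% when Gm42418 and the mitochondrial genes were left out of the totals, which shifted the median of all genes by -0.11. With a mitochondrial limit of 1% per nucleus they were 66.7%. Of the 78 genes with a call that are named in the text, 44 kept it in each of the 14 alternative settings that tested them. Another 34 lost it in at least 1 setting, 32 of them with 50 CPM added and 7 with TMM scaling.

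Of 12 tested genes of lipolysis and its control, 4 were called higher at 6 months, against 4.25% of all genes. None was called lower and 8 passed neither limit. The median log2 ratio was 0.68, against 0.12 over all genes. Pnpla2, which encodes adipose triglyceride lipase, had 105 CPM at 2 months and 303 CPM at 6 months, a 2.90-fold rise (2.57 to 3.28). The other 10 libraries lay between 113 and 175 CPM with a median of 143 CPM, so the 2-month value was below and the 6-month value above them all. Abhd5, the coactivator of that lipase, had 196 and 412 CPM, and the 6-month level was above the 320.1 CPM that the other libraries reached. Aqp7, the channel through which glycerol leaves the cell, had 37.6 and 108 CPM. Npr3, the clearance receptor for natriuretic peptides, had 437 and 1194 CPM. Npr3 had 42.4 and 31.4 CPM in the remaining nuclei and Pnpla2 21.2 and 35.1 CPM, far below the adipocyte level. The β3-adrenergic receptor gene Adrb3 missed the fold, with 769 and 1338 CPM and a log2 ratio of 0.79. The call of Aqp7 was lost with 50 CPM added. That of Abhd5 was lost with it too, with nuclei of at least 1000 UMIs only, with thinning to 500 UMIs per nucleus, and without Gm42418 and the mitochondrial genes in the totals. Lipe, one of the genes that chose the nuclei, is not on the list and had a log2 ratio of -0.33. Pnpla3, a relative of the lipase, had the lowest log2 ratio of the list, -0.61.

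In lipid uptake, 1 of 10 tested genes rose and 2 fell, against 4.25% and 3.63% of all genes, with a median log2 ratio of 0.29. Angptl4, a secreted inhibitor of lipoprotein lipase encoded at chromosome 17, 33773750 to 33781830, minus strand (GRCm38), rose from 29.0 to 158 CPM, 5.46-fold (4.36 to 6.95). Here the 2-month library was the low one, below the range of 64.6 to 170.0 CPM of the other 10, while the 6-month library lay within that range. Angptl4 in the remaining nuclei had 19.9 and 70.7 CPM. Lpl, the lipase gene itself, fell from 1777 to 872 CPM, with a log2 ratio of -1.02 just past the limit. Its call was lost with TMM scaling, with 50 CPM added, with nuclei of at least 1000 UMIs only and at a mitochondrial limit of 1%. The fatty acid carriers Cd36 and Fabp4 did not reach the fold, at log2 ratios of 0.72 and 0.62. Of the 5 tested lipid droplet proteins none was called, and their median was 0.28. The droplet genes Plin1, Plin4 and Cidec, which chose the nuclei, are not counted there, and Plin4 lay past the fold as given above.

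Of 15 tested genes of fatty acid synthesis, 4 were called lower at 6 months, against 3.63% of all genes. None was called higher and 11 passed neither limit. In all, 13 had a negative log2 ratio and the median was -0.57. Fasn, fatty acid synthase, had 190.0 CPM at 2 months and 46.5 CPM at 6 months, 4.08-fold lower (3.64 to 4.57). Acly, ATP citrate lyase, which supplies acetyl-CoA, had 152 and 37.2 CPM, 4.10-fold lower (3.61 to 4.65). Both genes spanned a wide range over the other 10 libraries, 19.4 to 1139.7 CPM for Fasn with a median of 314, and 29.3 to 1392 CPM for Acly with a median of 392. For both, the lowest of those 10 libraries was room-temperature iWAT, and the 6-month lPRAT level was the next above it. Scd2, a desaturase, fell from 25.2 to 6.93 CPM, a call lost with 50 CPM added and with thinning. The elongase Elovl6 fell from 38.0 to 13.9 CPM. Its log2 ratio of -1.01 is at the limit, and the call was lost with 50 CPM added, with TMM scaling, with nuclei of at least 1000 UMIs only and with thinning to 500 UMIs. Scd1, the main adipocyte desaturase, and Acss2, which makes acetyl-CoA from acetate, stayed short of the fold at -0.80 and -0.74. The sterol-response element TCACNCCAC was looked for in the same way as the promoter motifs described below. It was absent from the windows of Acly, Fasn and Elovl6, and 1.05% of all windows held it. Among regulators, Srebf1 had a log2 ratio of -0.57 and Mlxipl, which encodes ChREBP, 0.38.

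The remaining nuclei of the same libraries carried part of the same pattern. Their median over the fatty acid synthesis list was -0.90. In them Fasn fell from 63.7 to 10.3 CPM, while Acly had 64.3 and 42.2 CPM. For lipolysis their median was -0.24, of opposite sign to the adipocyte median. The summed adipocyte markers in these nuclei fell short of the adipocyte level at both ages, as given above, and how much of their signal is free RNA was not tested. The part of the different make-up of the remaining nuclei in these values was not tested either.

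Downstream of fatty acids the list medians lay near the 0.12 of all genes, of which 4.25% were called higher and 3.63% lower. For triglyceride synthesis none of 12 genes was called and the median was -0.02, which changed sign in 3 of the 14 alternatives. Pck1, which supplies glycerol phosphate, had the highest log2 ratio of that list at 0.89, and the acyltransferase gene Gpat3 the lowest at -0.64. In fatty acid oxidation 1 of 14 genes was called and the median was 0.28. That gene was Ppara, a nuclear receptor for fatty acids, which fell from 421 to 124 CPM, 3.38-fold (3.14 to 3.64). The other 10 libraries had 203 to 8567 CPM of Ppara, so 6-month lPRAT was the lowest of all 12. The peroxisomal enzyme gene Ehhadh had a log2 ratio of 0.98, below the limit. None of 26 nuclear-encoded respiratory chain genes was called, with a median of 0.13. Of 9 tested thermogenic genes 1 fell, Esrra, which encodes estrogen-related receptor α, from 145 to 60.7 CPM. That call was lost with 50 CPM added, with nuclei of at least 1000 UMIs only, with thinning and at a mitochondrial limit of 1%. The thermogenic median of 0.04 changed sign when only nuclei of at least 1000 UMIs were used, at mitochondrial limits of 5% and 1%, and when Gm42418 and mitochondrial genes were left out of the totals. Ucp1, the uncoupling protein of brown fat, had 0 UMIs at 2 months, which allows up to 1.13 CPM from 3 counts, and 2 UMIs at 6 months.

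**Figure D1:**
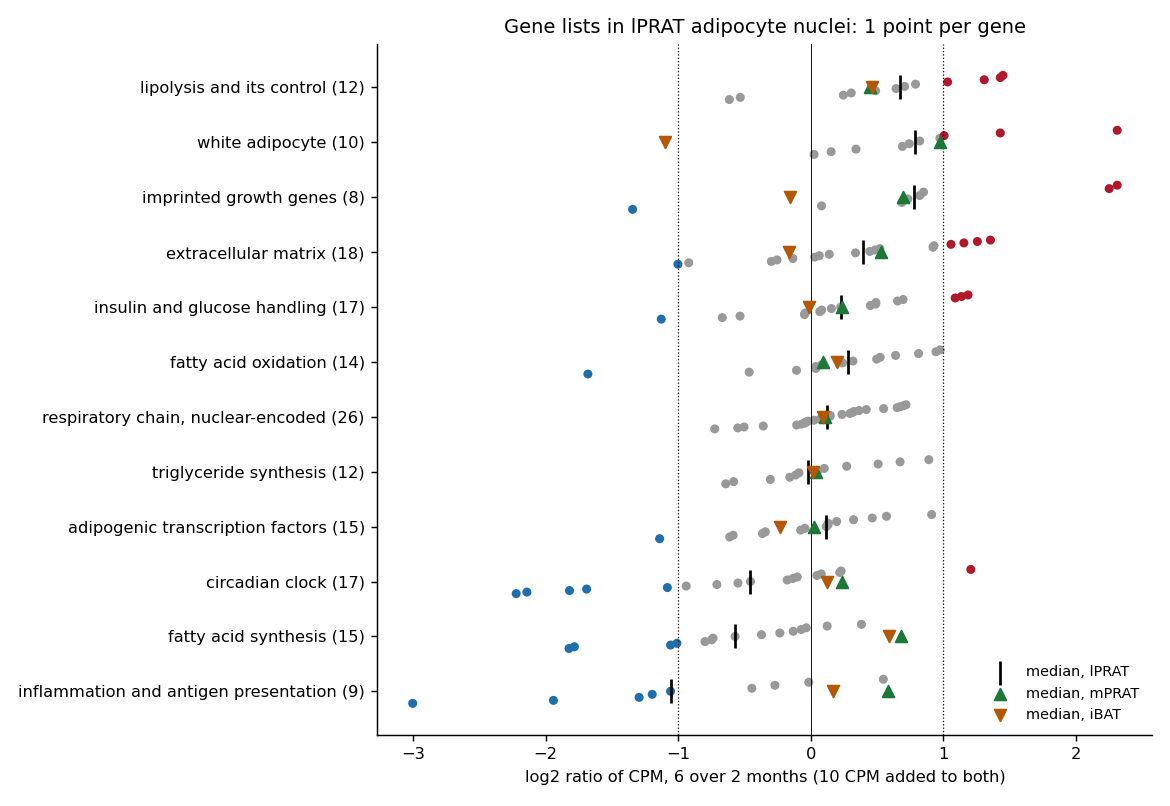
The plot of gene lists shows 1 point per tested gene, placed by its log2 ratio of CPM at 6 over 2 months with 10 CPM added, with list names and gene numbers on the vertical axis. Points beyond the dotted lines at -1 and 1 are called, bars give the lPRAT medians (0.68 for lipolysis, -0.57 for fatty acid synthesis, -1.06 for inflammation and antigen presentation), and triangles the same medians in mPRAT and iBAT.

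White adipocyte genes had log2 ratios above 0 in 10 of 10 tested cases, with 3 past the fold and a median of 0.78. Over all genes 4.25% were called higher and the median was 0.12, so the larger part of all genes also lay above 0. The lowest of the 10 was 0.03. Leaving Gm42418 and the mitochondrial genes out of the totals shifted the median of all genes by -0.11, so the count of 10 depends on the scaling. Mest, an imprinted gene whose product is a hydrolase-like protein linked to fat cell enlargement, lies at chromosome 6, 30723547 to 30748465, plus strand (GRCm38). It rose from 15.1 CPM at 2 months, which rests on 40 UMIs, to 114 CPM at 6 months, 7.60-fold (5.56 to 10.7). The other 10 libraries had a median of 0.545 CPM of Mest, and the highest of them was room-temperature iWAT with 94.5 CPM. Retn, which encodes resistin, rose from 82.0 to 175 CPM, just past the fold, and lost its call in 5 of the 14 alternatives. Nnat and Lep, which encodes leptin, had log2 ratios of 0.82 and 0.69 and missed it. Npr3, given above with lipolysis, was the other called gene, and Mest is counted again among imprinted growth genes below. These lists share genes and are not separate results. The white adipocyte list had a median of 0.98 in mPRAT, also above 0, and of -1.10 in iBAT.

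Among imprinted growth genes 2 of 8 rose and 1 fell, against 4.25% and 3.63% of all genes, with a median of 0.78. Peg3, a paternally expressed zinc finger gene at chromosome 7, 6703892 to 6730431, minus strand (GRCm38), rose from 172 to 855 CPM, 4.98-fold (4.54 to 5.48). The other 10 libraries lay between 33.8 and 741 CPM with a median of 166 CPM, so the 2-month level lay within them and the 6-month level was the highest. In the remaining lPRAT nuclei Peg3 had 51.7 and 68.8 CPM. The log2 ratio of Peg3 in the other depots was -0.39 in mPRAT and -1.26 in iBAT. Meg3, a maternally expressed noncoding RNA, fell from 92.2 to 30.3 CPM, a call lost with 50 CPM added and with the mean over nuclei. It was far higher in the remaining nuclei, at 694 and 499.7 CPM, where stromal cells are counted.

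Insulin and glucose handling had 3 higher genes and 1 lower gene of 17, against 4.25% and 3.63% of all genes, with a median of 0.23. Irs2, an adaptor of the insulin receptor, rose from 61.3 to 152 CPM, and the 2-month level was below the other 10 libraries, which began at 78.7 CPM. Pdk4, which restrains pyruvate oxidation, rose from 10.2 to 32.9 CPM, and both values were below the other libraries' range of 63.3 to 1039 CPM. Trarg1, a regulator of GLUT4 traffic, fell from 739 to 333 CPM. The calls of Irs2 and Pdk4 were lost with 50 CPM added, and that of Trarg1 with nuclei of at least 1000 UMIs only and at a mitochondrial limit of 1%. Slc2a4, which encodes GLUT4, and the insulin receptor gene Insr were not called, with log2 ratios of -0.53 and 0.45.

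The adipogenic transcription factors showed 1 lower gene of 15, against 3.63% of all genes. It was Cebpb, at 114 and 46.3 CPM, whose call was lost in 3 of the 14 alternatives. Pparg had a log2 ratio of -0.34, and Ebf1 had the highest log2 ratio at 0.91. The list's median was 0.12, and it changed sign with the mean over nuclei and without Gm42418 and the mitochondrial genes in the totals. Extracellular matrix genes had 4 higher and 1 lower of 18, against 4.25% and 3.63% of all genes, with a median of 0.39. The basement membrane laminin gene Lama4 rose from 538 to 1299.5 CPM. Col5a3 rose from 67.7 to 189 CPM and Col15a1, a basement membrane collagen, from 112 to 244 CPM. Itga1, a collagen-binding integrin subunit, rose from 89.6 to 212 CPM. At a mitochondrial limit of 1% the calls of Lama4, Col15a1 and Itga1 were lost. With 50 CPM added those of Col15a1 and Itga1 were. Col15a1 was lost in 5 alternatives in all. Fn1, fibronectin, was the 1 that fell, just at the limit, and it had 281 and 248 CPM in the remaining nuclei, well above the 41.4 and 15.7 CPM of adipocyte nuclei. Its call was lost in 6 alternatives, TMM scaling among them.

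In the list of inflammation and antigen presentation 5 of 9 tested genes fell at 6 months, against 3.63% of all genes, and none rose. The median was -1.06, against 0.12 over all genes. Over the 14 alternatives between 2 and 5 genes were called lower, and the median lay between -1.19 and -0.47, the latter at a mitochondrial limit of 1%. The class I heavy chains and their light chain, β2-microglobulin, present peptides on the cell surface. The promoters of the 3 chains called lower are shown. Each is the 250 bases before the start in RefSeq on GRCm38.p6, 5′ to 3′ along the gene, with the matched motif in capitals.
H2-K1, first of its 2 listed starts, chr17:34000348-34000597, minus strand: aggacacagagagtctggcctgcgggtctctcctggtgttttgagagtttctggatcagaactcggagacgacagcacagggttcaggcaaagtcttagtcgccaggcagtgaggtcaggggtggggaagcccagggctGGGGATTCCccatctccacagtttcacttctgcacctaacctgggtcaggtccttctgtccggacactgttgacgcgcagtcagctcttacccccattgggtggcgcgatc
H2-D1, chr17:35262844-35263093, plus strand: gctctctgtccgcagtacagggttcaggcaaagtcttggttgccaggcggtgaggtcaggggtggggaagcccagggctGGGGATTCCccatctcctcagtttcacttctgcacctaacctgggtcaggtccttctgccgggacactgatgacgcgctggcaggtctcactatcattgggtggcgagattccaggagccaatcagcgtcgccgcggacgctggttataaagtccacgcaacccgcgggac
B2m, chr2:122147437-122147686, plus strand: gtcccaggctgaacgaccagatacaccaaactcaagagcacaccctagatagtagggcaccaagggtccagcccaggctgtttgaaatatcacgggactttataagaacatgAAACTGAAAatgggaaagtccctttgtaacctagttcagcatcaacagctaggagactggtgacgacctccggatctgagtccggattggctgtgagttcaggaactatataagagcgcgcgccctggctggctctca
The capitals in H2-K1 and H2-D1 mark GGGGATTCC, the κB-like element known from class I genes, 111 and 171 bases before the start. The longest run that these 2 promoters share is 47 bases and holds this element. In B2m they mark AAACTGAAA, a match of TTTCNNTTT on the opposite strand, 138 bases before the start. Both strands were searched in 32851 windows of the same length. GGGGATTCC was found in 0.213% of them and TTTCNNTTT, the repeated core of the interferon-response element, in 9.37%. The windows of Tap1 and Irf1 held neither, and no match overlapped a match of the other motif. A match is a description of the letters and not of a bound factor.

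H2-K1 lies at chromosome 17, 33996017 to 34000347, minus strand (GRCm38), and its level fell from 1433 CPM at 2 months to 170.1 CPM at 6 months, 8.43-fold (8.03 to 8.85). The 2-month library was the high one, since the other 10 libraries had 47.6 to 314 CPM with a median of 150.3 CPM. H2-D1 fell from 250.3 to 57.8 CPM and B2m from 249 to 115 CPM. The log2 ratio of B2m was -1.06, and its call was lost in 8 of the 14 alternatives, TMM scaling among them, where the ratio lay between -0.97 and -0.58. For H2-D1 the other libraries reached at most 80.0 CPM and for B2m at most 138 CPM, so again only the 2-month level was outside their range. H2-K1 and H2-D1 are similar in sequence, and how the counting treated reads that fit both was not tested, so their separate values are uncertain. Tap1, which encodes a subunit of the peptide transporter, fell from 53.8 to 16.0 CPM. Irf1, an interferon-regulated transcription factor, fell from 64.0 to 22.3 CPM. Both of these calls were lost with 50 CPM added, with nuclei of at least 1000 UMIs only and at a mitochondrial limit of 1%. Nfkb1, which encodes a subunit of NF-κB, had a log2 ratio of 0.55 and was not called.

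These levels were not those of adipocyte nuclei alone. In the remaining nuclei H2-K1 had 1556 CPM at 2 months and 307 CPM at 6 months, H2-D1 344 and 172 CPM, and B2m 615 and 267 CPM. With every nucleus thinned to 500 UMIs, 52.9% of adipocyte nuclei (50.7% to 55.1%) and 53.4% of remaining nuclei (50.5% to 56.2%) had an H2-K1 UMI at 2 months. At 6 months the shares were 9.93% and 15.8%. Median depths before thinning were 955 and 776 UMIs at 2 months, and 6094 and 1719.5 UMIs at 6 months, for adipocyte and remaining nuclei. Without thinning the shares with an H2-K1 UMI were 76.6% and 69.2% at 2 months, and 57.5% and 41.6% at 6 months. Thinned to 1000 UMIs, with shallower nuclei left out, the shares at 2 months were 65.9% (62.8% to 68.9%) and 55.5% (50.5% to 60.4%). At 6 months they were then 17.7% and 24.7%. The 2-month intervals overlapped after thinning to 500 UMIs, so no order is read there. The 2-month shares at 1000 UMIs rest on 982 adipocyte and 400 remaining nuclei, so the depths compare different sets of nuclei. A share of adipocyte nuclei at or below that of the remaining nuclei cannot be told apart from background RNA.

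The circadian clock list had 5 lower genes and 1 higher gene of 17, against 3.63% and 4.25% of all genes, with a median of -0.45. The clock is a feedback loop in which CLOCK and its partner BMAL1 drive the Per, Cry and Nr1d genes, whose products then restrain them. Output factors such as DBP and HLF follow the loop. Sampling hours are not given in the sources used here, and their part in these values was not tested. Ciart, a repressor of the loop, is shown with its promoter because its motif is repeated, in the same layout as above.
Ciart, chr3:95882229-95882478, minus strand: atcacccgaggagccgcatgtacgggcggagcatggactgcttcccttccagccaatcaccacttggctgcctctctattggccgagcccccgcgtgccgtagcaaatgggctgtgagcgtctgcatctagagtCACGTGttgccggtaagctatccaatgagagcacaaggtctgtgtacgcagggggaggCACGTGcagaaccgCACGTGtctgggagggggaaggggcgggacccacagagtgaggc
The capitals mark CACGTG, the E-box that CLOCK and BMAL1 are known to bind, at 116, 58 and 44 bases before the start. CACGTG was found in 6.02% of all windows. Of the other called clock genes, the windows of Nr1d2, Hlf and Clock held none.

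Ciart fell from 47.0 to 2.93 CPM, on 125 and 50 UMIs, and the 2-month level was above the other 10 libraries, whose highest was 41.2 CPM. Bhlhe40, which competes for E-boxes, fell from 104 to 14.5 CPM. Hlf fell from 70.7 to 15 CPM. Here the 6-month level was the one outside the other libraries, whose lowest was 63.9 CPM. Nr1d2, which encodes REV-ERBβ, fell from 533 to 246 CPM. Clock rose from 67.0 to 168 CPM, from below the other libraries to within them. Of the core members, Nr1d1, Per2, Per3 and Arntl, which encodes BMAL1, had log2 ratios of 0.08, -0.18, -0.13 and 0.22, and Dbp had 0.05. Cry1 was not called either, but it passed the lower limit in some alternatives, among them 1 CPM added, thinning and the mean over nuclei. Hlf had 78.9 and 63.8 CPM in the remaining nuclei and Ciart 8.62 and 4.15 CPM. With 50 CPM added the calls of Hlf, Ciart, Clock and Nr1d2 were lost. Clock lost its call at a mitochondrial limit of 1% as well, and Nr1d2 there, with TMM scaling and with nuclei of at least 1000 UMIs only. The number of clock genes called lower was between 1 and 6 over the 14 alternatives.

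The 15 genes with the highest log2 ratios lay between 2.17 and 3.77. In all 15 the 6-month adipocyte level was above all 10 other libraries, against 18.1% of all genes tested. The ranking itself favours this position, so nothing is read from it. Dock8, which encodes a guanine nucleotide exchange factor best known from immune cells, led them. It lies at chromosome 19, 24999534 to 25202432, plus strand (GRCm38) and rose from 29.4 to 528 CPM, 18.0-fold (14.4 to 22.8), against 32.4 to 216 CPM elsewhere. In the remaining nuclei Dock8 had 117 and 505 CPM, and in those with macrophage markers 488 and 1103 CPM. Pkp2, at chromosome 16, 16213318 to 16272712, plus strand (GRCm38), encodes the junction protein plakophilin 2. It rose from 41.0 to 387 CPM, 9.42-fold (7.80 to 11.5), and room-temperature iWAT had the highest level elsewhere with 219 CPM. Remaining nuclei had 14.6 and 37.8 CPM of Pkp2.

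Slc5a7, the choline transporter gene, rose from 2.26 CPM, which rests on 6 UMIs, to 74.0 CPM, and its ratio of 32.8 had a wide interval of 15 to 89.4. Ltc4s, leukotriene C4 synthase, rose from 8.66 to 101 CPM, and the remaining nuclei had 3.98 and 38.7 CPM. The complement gene C6 rose from 6.77 to 75.4 CPM. Cadps, a factor of vesicle release, rose from 11.7 to 99.6 CPM and Unc79, a subunit of a sodium leak channel, from 10.9 to 93.5 CPM. These 3 genes were low in the other 10 libraries, which reached at most 8.24, 17.2 and 19.9 CPM. Ptchd4 rose from 70.4 to 352 CPM. The transcripts D730045B01Rik, C130026I21Rik and Gm36827 had log2 ratios of 2.48, 2.43 and 2.31. Plin4, Mest and Peg3, described above, are also among the 15.

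**Figure D2:**
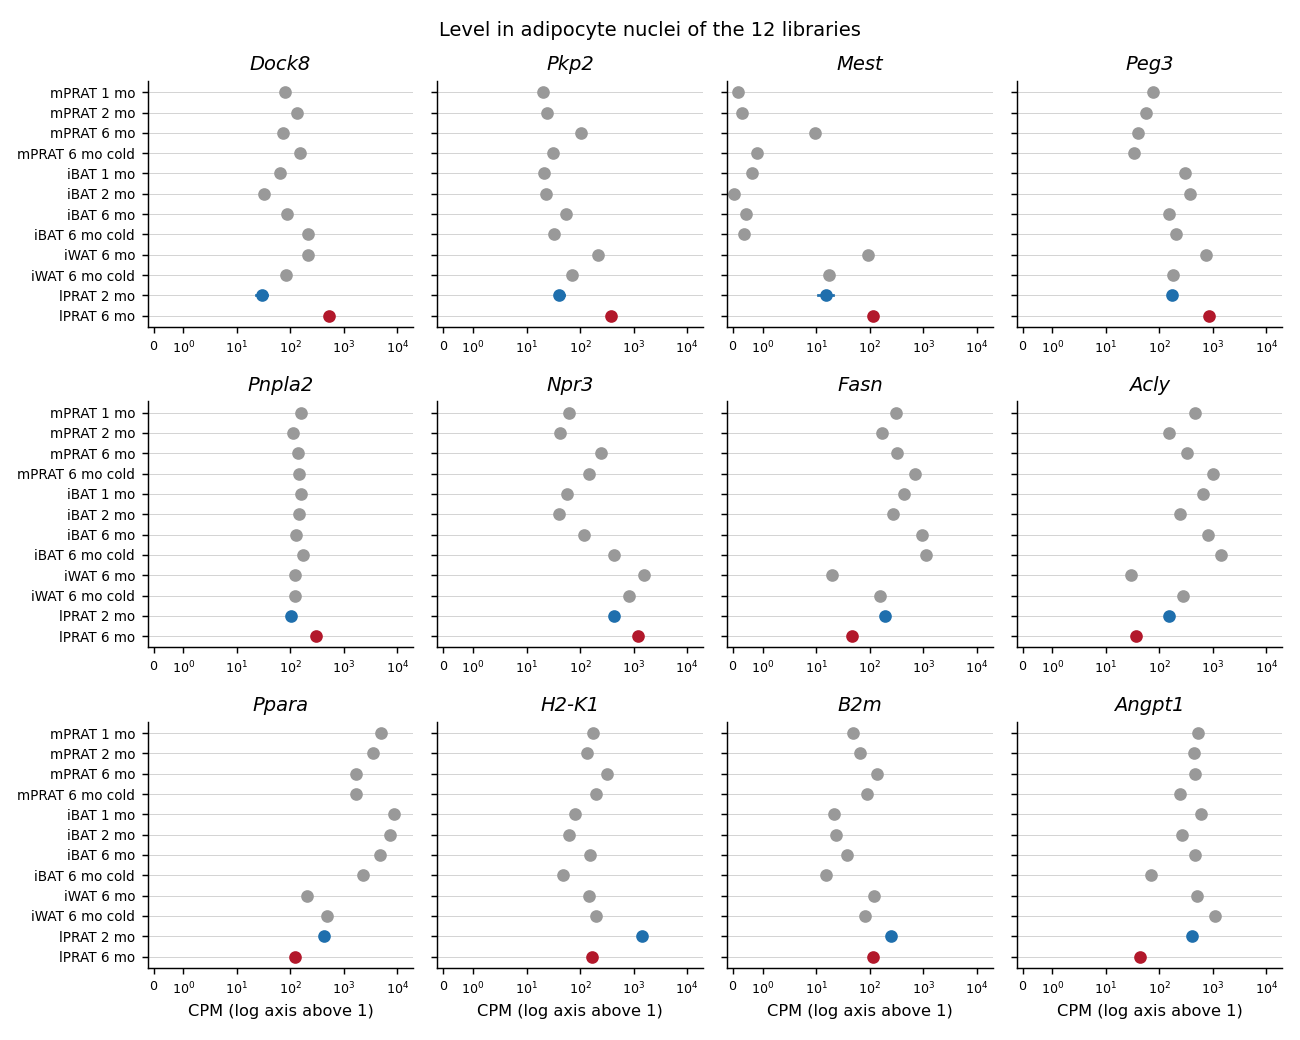
The plot of levels by library gives CPM in adipocyte nuclei of the 12 libraries on a log axis that is linear below 1, with 2-month lPRAT in blue, 6-month lPRAT in red, the other 10 libraries in grey and bars for the 95% Poisson interval of the lPRAT values. Dock8, Pkp2, Mest, Peg3 and Pnpla2 had their highest level in 6-month lPRAT, H2-K1 and B2m in 2-month lPRAT, and Ppara and Angpt1 their lowest in 6-month lPRAT.

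The 15 genes with the lowest log2 ratios lay between -4.28 and -2.79. All 15 were past the lower limit in the remaining nuclei too, so these falls were not limited to adipocyte nuclei. Of the 15 highest genes 3 were past the upper limit there. The 15 lowest include Gm19951 and the noncoding transcripts Gm42418 and Gm26917, and the latter pair overlaps ribosomal RNA sequence. Gm42418 fell from 79456 to 4690.1 CPM, and the remaining nuclei had 58561 and 9727 CPM. Gm19951 fell from 1418 to 63.4 CPM and Gm26917 from 5739.8 to 571 CPM. The mitochondrial genes mt-Atp6, mt-Co3, mt-Co2 and mt-Nd1 also belong here. All 13 mitochondrial genes tested fell, with log2 ratios of -3.30 to -1.69 and a median of -2.76. Their median was -1.65 in mPRAT and 0.71 in iBAT. Of 74 ribosomal protein genes 4 rose and none fell, near the 4.25% of all genes called higher, and the median was 0.16 against 0.12 over all genes.

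Of the other genes at that end, Angpt1, which encodes the vessel-stabilising ligand angiopoietin 1, lies at chromosome 15, 42424723 to 42676977, minus strand (GRCm38). It fell from 402 to 43.7 CPM, 9.19-fold (8.36 to 10.1). The other 10 libraries had 70.7 to 1079.6 CPM, so it was the 6-month level that stood outside. Srsf2 and Ddx39b, which act in RNA splicing and export, showed the reverse arrangement. Srsf2 fell from 1664 to 233 CPM with 166 to 365 CPM elsewhere. Ddx39b fell from 1069.9 to 146 CPM with 105 to 192 CPM elsewhere. In the list of 23 splicing factors these were the only 2 that fell, against 3.63% of all genes. Srsf11 was the 1 that rose, against 4.25% of all genes, with a call lost in 4 of the 14 alternatives. The list's median was 0.14, against 0.12 over all genes. Camk1d, a calcium-dependent kinase gene, fell from 3509 to 320.0 CPM and Cdk8, a kinase of the Mediator complex, from 3193 to 306 CPM. Marveld1 fell from 180.3 to 13.2 CPM. Pi16, a marker of stromal progenitors, fell from 137 to 4.75 CPM, and the other libraries reached at most 5.68 CPM. Their log2 ratio in the remaining nuclei was -3.39 for Cdk8, -1.82 for Camk1d, -2.34 for Pi16, -1.61 for Srsf2 and -1.12 for Angpt1.

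Both comparisons, of adipocyte and of remaining nuclei, draw on the same pair of libraries. Of 9889 genes tested in the remaining nuclei 577 were higher (5.83%) and 306 lower (3.09%) by the same limits. For the 304 adipocyte genes called higher that could be tested there, the median log2 ratio was 1.19 in adipocyte nuclei and 0.54 in the remaining nuclei. For the 298 called lower it was -1.29 and -0.80. Past the same limits in the remaining nuclei were 63 of the 304 and 106 of the 298. Against the other 10 libraries, 2-month lPRAT stood above all of them for 221 of the 315 lower genes, while this holds for 17.8% of all genes tested. The 6-month library stood below all of them for 51 of these genes, against 9.81% of all. Of the 368 higher genes, 6-month lPRAT was above all others for 202, against 18.1% of all, and 2-month lPRAT below all others for 140, against 20.4% of all. The calls themselves favour these positions, so nothing is read from the shares.

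**Figure D3:**
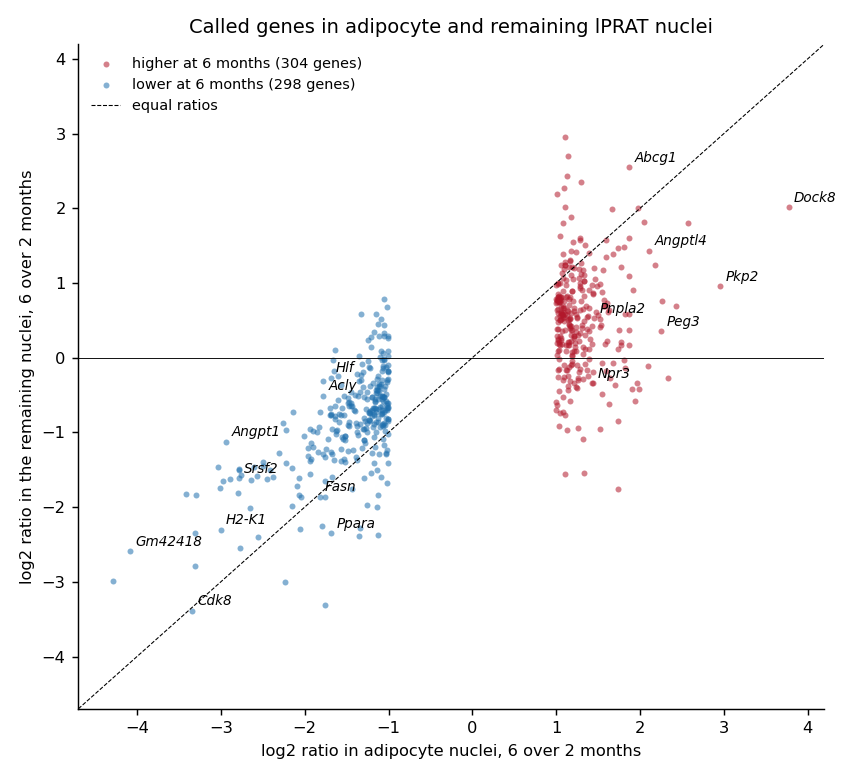
The scatter plot places each called gene by its log2 ratio at 6 over 2 months in adipocyte nuclei (horizontal axis) and in the remaining nuclei of the same libraries (vertical axis), red for the 304 higher and blue for the 298 lower genes. Dock8, Pkp2 and Peg3 lie below the dashed line of equal ratios, H2-K1 lies close to it at -3.00 and -2.30, and Cdk8 next to it.

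Markers of other cell types in the adipocyte sums were mostly lower at 6 months. Over all genes 3.63% were called lower. Dcn, Lama2, Mrc1, Flt1 and Ptprb are on these lists and also served to choose the nuclei, so their levels are no finding. Dcn and Mrc1 are among the genes past the fold below. The 9 stromal progenitor markers summed to 517 CPM at the earlier age and 129 CPM at the later, with 9 of 9 lower and 4 past the fold. The 8 macrophage markers summed to 377 and 204 CPM, with 7 of 8 lower and 2 past the fold. The 10 mesothelial markers summed to 262 and 171 CPM, with 9 of 10 lower, and the 8 endothelial markers to 78.7 and 58.6 CPM, with 7 of 8 lower. The 8 lymphocyte markers summed to 387 and 337 CPM with Cd3e at 0 at 2 months, and the 5 Schwann cell markers to 31.2 and 8.63 CPM. The 7 brown adipocyte markers summed to 78.7 and 78.5 CPM, with Ucp1, Cox7a1 and Elovl3 at 0 at 2 months. Sums for mural, lymphatic endothelial, skeletal muscle, kidney tubule and adrenal cortex markers were at most 20.0 CPM, and Umod, Slc34a1 and Cyp11b1 were at 0 in both libraries. In the remaining nuclei the stromal sum was 3710 and 2770.3 CPM and the macrophage sum 2135 and 2984 CPM. The part of such RNA in the calls was not tested. When nuclei with any UMI of the 10 mesothelial markers or of the 6 non-adipocyte rule genes were left out, 421 genes were higher and 320 lower. Of these, 343 and 267 were shared with the calls above. The other markers of this paragraph were not used to leave nuclei out.

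Because depth per nucleus differed, shares of nuclei were compared after thinning each to 500 UMIs. Pkp2 was found in 1.60% of adipocyte nuclei at 2 months (1.10% to 2.24%) and in 15.3% at 6 months (13.8% to 16.8%). In the remaining nuclei the Pkp2 shares were 0.658% and 1.75%. Without thinning they were 4.65% and 66.0% of adipocyte nuclei. The remaining nuclei may include fat cells with few UMIs. At 2 months 144 and 181 of the 1216 had marker sums of 1 and 2 that exceeded the other 6 genes. At 6 months it was 192 and 246 of the 3650. How many of these are fat cells was not tested. Peg3 was found in 9.21% and 30.3% of adipocyte nuclei, with 4.03% and 4.38% of the remaining nuclei as background. Npr3 was found in 14.1% and 31.3%, with 2.06% and 2.74% as background, and Pnpla2 in 5.33% and 15.4%, with 1.64% and 2.38%. Dock8 was found in 1.02% and 17.0% of adipocyte nuclei, but also in 4.77% and 15.6% of the remaining nuclei. Fasn went from 9.69% to 2.07% of adipocyte nuclei, with 4.19% and 0.822% as background. Acly was found in 7.61% and 1.73%, with 3.37% and 2.19% as background, and Elovl6 in 1.75% and 0.907%, with 1.15% and 1.26%. At 6 months Acly and Elovl6 were thus no more frequent in adipocyte nuclei than in the remaining nuclei, and these shares cannot be told apart from background RNA. The remaining nuclei hold other cell types, so their own shares do not measure free RNA alone. Ppara went from 19% to 5.61%, with 5.59% and 0.822%. Mest was found in 0.436% and 4.02% of adipocyte nuclei. Its 2-month share rests on 9 nuclei, and its interval (0.200% to 0.827%) overlapped that of the 0.576% background (0.232% to 1.18%). Thinned to 1000 UMIs, the 2-month share was 0.815% (8 of 982 nuclei) with 0.25% (1 of 400) as background. These intervals overlapped too, so no order is read at either depth. At 6 months Mest was above its background of 0.247%.

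**Figure D4:**
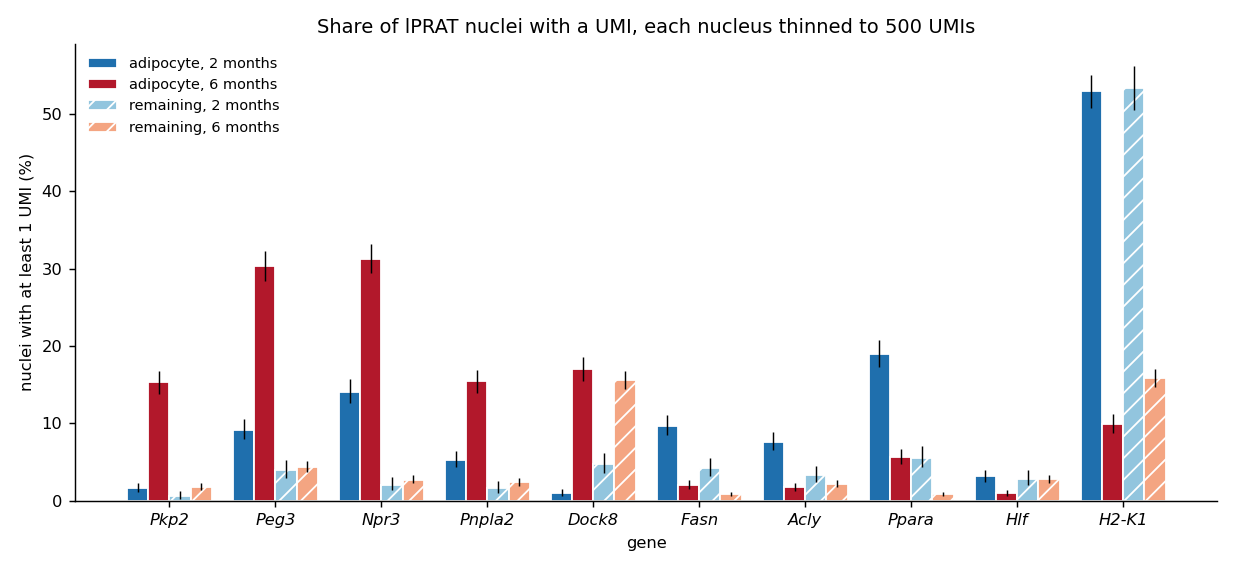
The bar chart gives the percentage of lPRAT nuclei with at least 1 UMI of each gene after thinning to 500 UMIs, for adipocyte nuclei (solid) and remaining nuclei (hatched) at 2 and 6 months, with exact 95% Clopper-Pearson intervals. Pkp2, Peg3, Npr3 and Pnpla2 are most frequent in 6-month adipocyte nuclei, while H2-K1 at 2 months was found in 52.9% of adipocyte and 53.4% of remaining nuclei.

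At 6 months other risen genes stood in different relation to their background, again after thinning to 500 UMIs. Ltc4s was found in 5.18% of adipocyte and 2.52% of remaining nuclei, and Cadps in 2.72% and 0.493%. Ephx2, which encodes an epoxide hydrolase, was found in 16.5% and 1.15%. Car3, the abundant carbonic anhydrase 3 of white fat, was found in 78.7% and 12.5%. Ephx2 and Car3, chosen after their values were seen, rose from 98.2 to 418 CPM and from 1260.3 to 4623 CPM.

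Adipocytes of mPRAT and iBAT gave the same contrast in separate libraries. In mPRAT 218 of 8716 tested genes were higher (2.5%) and 366 lower (4.2%), and in iBAT 186 of 8369 were higher (2.22%) and 202 lower (2.41%). Of the higher lPRAT genes 43 of the 315 tested in mPRAT were higher there too, 13.7% of them and 19.7% of the mPRAT genes. In iBAT it was 16 of 284, 5.63% of them and 8.60% of the iBAT genes. Past the fold in the opposite direction were 8 of the 315 in mPRAT and 18 of the 284 in iBAT, more in iBAT than the 16 that shared the direction. Of the lower lPRAT genes 28 of 237 were lower in mPRAT, 11.8% of them and 7.65% of the mPRAT genes, and 18 of 218 in iBAT, 8.26% and 8.91%. Here 11 of the 237 in mPRAT and 14 of the 218 in iBAT lay past the fold in the opposite direction. The fatty acid synthesis list, negative in lPRAT, had medians of 0.68 in mPRAT and 0.59 in iBAT. Fasn had log2 ratios of 0.87 and 1.80 there, and Acly 1.03 and 1.71. The lipolysis medians, 0.45 and 0.46, had the sign seen in lPRAT. For inflammation and antigen presentation the medians were 0.58 and 0.16, and H2-K1 had log2 ratios of 1.14 and 1.16. Npr3 rose in mPRAT and iBAT as well, by 2.31 and 1.32 on the log2 scale. Whether lPRAT differs from these depots could not be tested with 1 library per group.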

How the data were processed

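The authors deposited raw UMI counts per gene and barcode for each library, made with Cell Ranger 7.0.0 on mm10, per the file headers and the submitters' processing notes. The annotation release and the counting of introns are not given in the sources used here. Counts of the adipocyte nuclei were summed per library and divided by their total (CPM). Of 32285 gene identifiers 32235 were found in GENCODE M21, from which positions were taken, and 38 symbols are shared by several identifiers. Poisson, Clopper-Pearson and conditional binomial intervals came from scipy 1.17.1 in Python 3.11.15, and TMM factors from edgeR 4.0.16 in R 4.3.3. Doublets were kept, and scrublet in scanpy 1.11.5 was an alternative. The calculation of ratios, calls and intervals was tested on simulated counts with counting error only. Choice of nuclei, background RNA and variation between libraries were not simulated. Named genes were the 15 with the highest and the 15 with the lowest log2 ratio, up to 4 of the largest per list, list genes whose place in a pathway is explained, and the genes of the nucleus rule. Members and the 26 gene lists were chosen with earlier results of these data known. RefSeq windows lacked an entry for Bhlhe40 and Scd2. Some genes that the rule would name are not reported here.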

Additional observations from a re-analysis of the deposited data

How the results depend on the processing

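The counts of 368 higher and 315 lower genes moved most with the number added to the CPM. With 1 CPM added they were 782 and 598, with 50 CPM added 95 and 77, and with a mean of at least 50 CPM 189 and 133. Thinning every nucleus to 500 UMIs before the adipocyte rule gave 592 higher genes, and a mitochondrial limit of 1%, chosen after seeing the data, 206 lower genes. The adipocyte share of 62.9% at 2 months was 71.1% for nuclei with at least 1000 UMIs, 44.7% after thinning, 49.6% with a marker sum of at least 5, and 67.7% and 74.2% at mitochondrial limits of 5% and 1%. At 6 months the share of 38.8% was 44.9% for nuclei with at least 1000 UMIs, 29.7% after thinning, 36.1% with a sum of at least 5 and 45.2% at a limit of 1%. Of the 78 named genes with a call, 44 kept it in every setting that tested them. Of the 34 that did not, 32 lost it with 50 CPM added, 18 at a mitochondrial limit of 1%, 14 with nuclei of at least 1000 UMIs, 10 with thinning, 9 with the mean over nuclei and 7 with TMM scaling. The mean of the CPM of single nuclei turned the sign of 3 called genes: Fbn1 from -1.07 to 0.10, Nlgn1 from -1.07 to 0.38 and Adamtsl1 from -1.23 to 0.41. Of the 26 list medians 19 kept their sign in all 14 alternatives, and those of triglyceride synthesis, thermogenic genes, adipokines, adipogenic transcription factors, cholesterol synthesis, axon guidance and nuclear noncoding RNAs did not. The totals without Gm42418 and mitochondrial genes were also an alternative chosen after seeing the data. The causes of these shifts were not tested. No paired analysis was possible because each group is 1 library, and for the same reason no replicate could be left out. At 2 months a count of 3 UMIs corresponds to 1.13 CPM, against 0.176 CPM at 6 months, so low genes are least precise at 2 months.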

Other observations

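Further lists are given here by their counts and medians. Over all genes 4.25% were called higher and 3.63% lower, with a median of 0.12. Of 10 tested adipokine genes 2 rose, Angptl4 and Retn, the latter not in every alternative, and the median was 0.10. It changed sign when Gm42418 and the mitochondrial genes were left out of the totals. The complement gene C3 had a log2 ratio of -0.55, short of the fold. In the growth hormone and IGF axis 1 of 11 genes fell, Igfbp7, from 115 to 42.8 CPM, and the median was -0.14. The call of Igfbp7 was lost with 50 CPM added and at a mitochondrial limit of 1%. Glucocorticoid response genes had 1 higher gene, Pdk4, and 2 lower genes of 9, with a median of 0.13. The lower pair was Fkbp5, a chaperone of the glucocorticoid receptor, at 481 and 207 CPM, and Hsd11b1, which regenerates active glucocorticoid, at 30.9 and 10.1 CPM. Hsd11b1 lost its call in 6 of the 14 alternatives, TMM scaling among them, and Pdk4 with 50 CPM added. In mPRAT and iBAT Fkbp5 had log2 ratios of -2.06 and -3.00. In cholesterol synthesis 1 of 9 genes rose, Hmgcs1, from 32.4 to 99.6 CPM, and 1 fell, with a median of 0.05. The call of Hmgcs1 was lost with 50 CPM added. That median changed sign with nuclei of at least 1000 UMIs, with a marker sum of at least 5 and without Gm42418 and the mitochondrial genes in the totals.

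Among angiogenic factors Angptl4 rose and Angpt1 fell, of 7 genes with a median of 0.23, and Vegfa had a log2 ratio of 0.65. For axon guidance and synaptic adhesion 2 of 16 genes rose and 4 fell, with a median of -0.21 that changed sign with the mean over nuclei. Ntrk2, the receptor for brain-derived neurotrophic factor, rose from 76.8 to 180.4 CPM. The guidance ligand gene Sema3a fell from 55.7 to 10.8 CPM and its remaining-nuclei level was 174 and 171 CPM. Unc5c, a netrin receptor gene, fell from 28.6 to 3.76 CPM. All 3 of these calls were lost with 50 CPM added, that of Ntrk2 also with thinning and that of Sema3a with the mean over nuclei. In the senescence list 1 of 5 tested genes fell, the cell cycle inhibitor Cdkn2c, from 166 to 25.4 CPM, and the median was -0.49. That median was -0.13 with thinning to 500 UMIs per nucleus and -0.72 with 1 CPM added, and it was 0.46 in the remaining nuclei. Cdkn2a and Cdkn1a, which encode p16 and p21, were too low to be tested. Of 10 depot position genes none was called, with a median of -0.39, and Tbx15 was the lowest at -0.99. None of 4 tested immediate early and heat shock genes was called, with a median of 0.19. Of 8 nuclear noncoding RNAs Snhg11 rose from 170.5 to 509 CPM, and Gm42418 and Meg3 fell. Their median of 0.10 changed sign without Gm42418 and the mitochondrial genes in the totals and at a mitochondrial limit of 1%.

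Gene span went with the calls at both ends. Of 1168 tested genes that span under 10 kb, 6.76% were higher and 7.53% lower, and of 337 genes over 300 kb, 8.01% and 7.12%. For 3097 genes of 30 to 100 kb the figures were 2.78% and 2.36%. Compared with the room-temperature iWAT library, which both comparisons share, the median size of the log2 ratio over all tested genes was 0.37 for 2-month and 0.22 for 6-month lPRAT adipocytes. Median depths were 955, 6094 and 6213 UMIs per adipocyte nucleus in these 3 libraries.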
